A study of Mus musculus with 12 samples.

Results

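Retinoic acid (RA), given at 0.3 µM for 4 h, was compared with no RA in KH2 cells, a mouse embryonic stem (ES) cell line grown on a layer of feeder cells. Of the 12 expression arrays of the study, 6 enter this comparison: 3 arrays of cells after 4 h of RA and 3 of untreated cells, with replicates lettered A, B and C in each group. The other 6 arrays, of cells after 2 h and 6 h of RA, were used for the shared estimate of spread and to place the 4 h level between its neighbours in time. The comparison was chosen by the labels alone and runs over the 18194 genes that have a probe set of their own on the array. RA came together with a differentiation medium, and the labels do not say that the untreated cells were moved to that medium, so the effects of RA and of medium cannot be told apart. Before lysis the cells were replated on gelatin for 30 min to lower the number of feeders, and the protocols differ on whether the attached or the floating cells were then taken. All 4 groups share the KH2 line, with its feeders and the replating. Since nothing in the labels makes the replicates separate cultures, the p-values measure only how these samples vary, and that variation may be technical.

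RA is made from vitamin A by retinol and retinaldehyde dehydrogenases, is carried in the cytoplasm by the Crabp proteins and is broken down by the Cyp26 enzymes. Inside the nucleus it binds the RA receptors (Rara, Rarb, Rarg), which sit on DNA as partners of the retinoid X receptors (Rxr). Their binding sites are often direct repeats of a short motif, and anterior genes of the Hox clusters are among the best known targets during hindbrain development and in differentiating ES cells.

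The promoters of 3 genes that rose show what such a repeat looks like, and where it was and was not found. Each stretch is the 250 bases before the annotated start of the gene, taken from RefSeq on build GRCm38.p6 and written in the direction of the gene. Capitals mark the motifs of a direct repeat with a spacing of 5 bases. The Cyp26a1 window lies at chr19:37697558-37697807 on the + strand, the Rarb window at chr14:16575477-16575726 on the - strand and the Hoxb1 window at chr11:96365508-96365757 on the + strand.
Cyp26a1: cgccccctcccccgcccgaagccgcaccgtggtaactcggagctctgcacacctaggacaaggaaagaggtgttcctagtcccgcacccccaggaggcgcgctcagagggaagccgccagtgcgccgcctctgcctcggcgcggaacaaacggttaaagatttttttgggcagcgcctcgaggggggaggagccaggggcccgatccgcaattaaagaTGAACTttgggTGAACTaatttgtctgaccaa
Rarb: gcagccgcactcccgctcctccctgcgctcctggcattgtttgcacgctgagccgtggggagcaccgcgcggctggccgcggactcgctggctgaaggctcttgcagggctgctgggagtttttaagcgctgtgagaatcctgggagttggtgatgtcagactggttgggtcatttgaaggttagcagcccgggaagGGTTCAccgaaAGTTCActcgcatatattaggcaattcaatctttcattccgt
Hoxb1: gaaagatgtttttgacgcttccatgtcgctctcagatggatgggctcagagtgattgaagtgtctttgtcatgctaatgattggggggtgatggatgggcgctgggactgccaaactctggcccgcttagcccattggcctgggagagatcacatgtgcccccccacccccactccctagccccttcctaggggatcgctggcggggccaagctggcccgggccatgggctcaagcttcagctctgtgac
The search took 4 forms of the motif, AGGTCA or AGTTCA or GGTTCA or GGGTCA, in any ordered pair, on both strands, with spacings of 1, 2 or 5 bases, in windows that also held the 50 bases after the start. In Cyp26a1 the repeat with a spacing of 5 runs against the direction of the gene (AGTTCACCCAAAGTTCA on the other strand) and its left end lies at base -32 from the start. In Rarb it runs with the gene (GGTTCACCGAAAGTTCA), with its left end at base -53. No repeat of this kind was in the Hoxb1 window, which says only that these letters are not there. Among the genes called higher by at least 2-fold, 97 had a window, and 3 of them (3.09%) held a repeat with a spacing of 5. The chemokine gene Ppbp was the other (AGGTCAGACCTAGGTCA), with its left end at base -246. The same repeat stood in 11 of the 14453 tested genes with a window (0.0761%), in 0 of 105 genes called lower by at least 2-fold, and in 0.0974% of all 32851 windows given. A spacing of 2 was found in Tinagl1 alone among the 97 (1.03%, against 0.0969% of tested genes). A spacing of 1 was found in none of the 97, against 0.256%. A match describes the sequence and does not show that a receptor binds there.

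The arrays were alike in overall signal and in RNA ends. Their median log2 signal lay between 6.05 and 6.10, and the difference between the 3' and 5' probe sets of Gapdh lay between -0.05 and 0.05 and that of Actb between 0.46 and 0.60 on all 12 arrays. Untreated array C stood apart: it correlated at 0.9928 and 0.9935 with untreated B and A over all probe sets, while A and B correlated at 0.9971 and the 4 h arrays at 0.9973 to 0.9977. ES cell markers were high on every array: the 25 measured core pluripotency genes averaged 11.88 to 12.04 untreated and 11.93 to 12.05 at 4 h and none lay under the median of all values, 6.07. Markers of feeder fibroblasts were present too, as a mean log2 signal over 32 genes of 8.35, 8.69 and 7.98 on untreated A, B and C and of 8.68, 8.54 and 8.64 at 4 h. Among them 6 were called higher and 1 lower, with a median difference of 0.27 and a share called of 21.9% beside 26.9% of all genes. The list gave 18 higher and 0 lower without untreated B, but 2 or 3 higher and 0 to 2 lower without untreated A, untreated C, 4 h A or 4 h C. The part of feeder cells in the differences below was not tested. These are bulk samples, so fewer cells of a type and less RNA per cell cannot be told apart.

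At 4 h, 2332 genes were higher (12.8% of those tested) and 2561 were lower (14.1%), 26.9% together, by limma with a Benjamini-Hochberg adjusted p under 0.05. These shares are the background for the counts of each gene list below, and a list with counts near them shows nothing of its own. Most of the differences were small. The median was 0.39 on the log2 scale among the genes called higher and -0.42 among those called lower, and the smallest difference called was 0.152. Only 132 genes rose by at least 2-fold (0.726%) and 127 fell by at least 2-fold (0.698%). The 3 arrays of one group lay wholly above or below those of the other for 6733 genes (37.0%), among them 4756 of the 4893 genes called. The rises reached further than the falls: 17 genes rose by 2 to 3 on the log2 scale and 5 by more than 3, while 1 gene fell by more than 2. Below, values are log2 signal, and differences are 4 h minus untreated with the fitted standard error (SE). The SE takes 1 spread per gene for all 4 groups, but the groups differed in spread. The median standard deviation between arrays was 0.122 untreated and 0.071, 0.083 and 0.085 at 2 h, 4 h and 6 h. Where the untreated arrays vary more than the others, the SE and adjusted p against no RA may be too small. For 42 of the 132 genes all untreated values lay under 6.07, and for 25 of the 127 all 4 h values did. Whether such signals exceed background was not tested. Genes with them get no fold, and their differences describe the deposited values only.

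**Figure D1:**
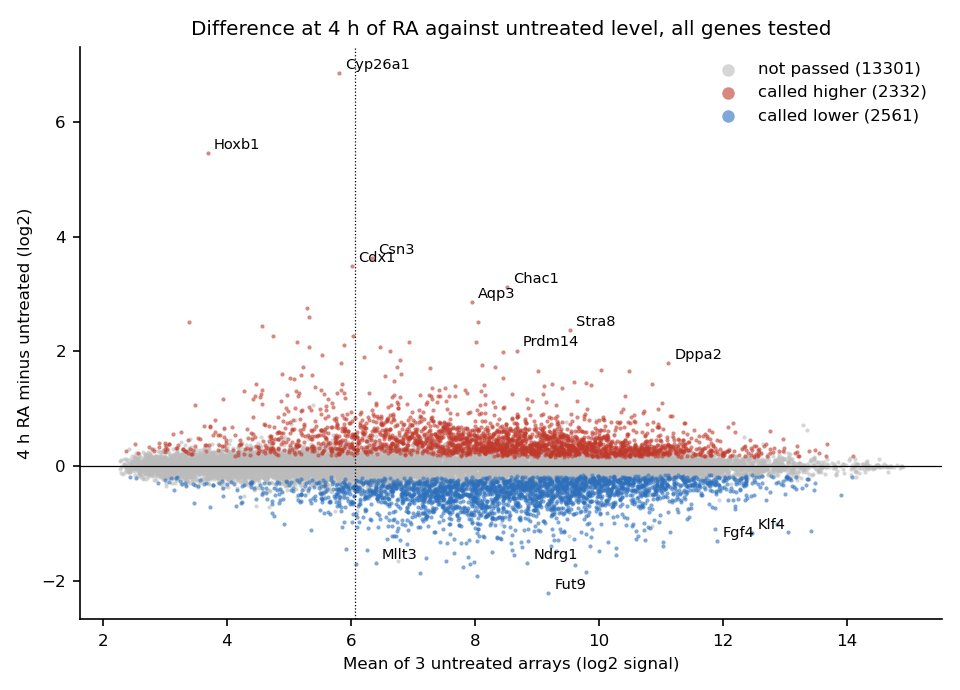
Difference at 4 h of RA (4 h minus untreated, log2) against the mean of the 3 untreated arrays (log2 signal) for 18194 genes, with genes called higher in red, called lower in blue and the others in grey; the dotted line is the median of all values, 6.07. The largest rises, Cyp26a1 and Hoxb1, start left of the dotted line, and the falls go no further than the -2.21 of Fut9.

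Among the enzymes and carriers that handle RA, Cyp26a1, which oxidises RA for clearance, showed the largest rise of all genes tested. Its values were 5.64, 5.85 and 5.94 untreated and 12.64, 12.66 and 12.69 at 4 h. The groups were far apart and the 4 h arrays almost equal, for a difference of 6.85 ± 0.084 (adjusted p = 2.58e-13). Its relative Cyp26b1 rose by 0.66 ± 0.095 (adjusted p = 0.000383). Dhrs3, a reductase that returns retinaldehyde to retinol, had 6.59, 5.63 and 7.19 untreated and 8.41, 8.55 and 8.66 at 4 h. The untreated arrays were scattered, with B lowest, and all lay below the 4 h arrays, for a rise of 2.07 ± 0.28 (adjusted p = 0.00025). Stra6, the membrane receptor that takes up retinol from its plasma carrier, rose by 0.60 ± 0.11 (adjusted p = 0.0021), and Crabp2, which carries RA to its receptors, rose 1.41-fold (0.50 ± 0.078, adjusted p = 0.000647).

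Of the members that fell, Rdh11, which interconverts retinol and retinaldehyde, fell 1.9-fold, from 8.31, 8.62 and 8.72 untreated to 7.68, 7.65 and 7.54 at 4 h. Fabp5, a fatty acid binding protein that also carries RA, fell by 0.31 ± 0.069 (adjusted p = 0.00511). The carrier Crabp1 was lower by only 0.21 ± 0.058 (adjusted p = 0.0196), and its call ended when any 1 of 4 arrays (untreated B or a 4 h array) was left out. None of the 3 retinaldehyde dehydrogenases that make RA was called: Aldh1a1, Aldh1a2 and Aldh1a3 lay under 6.07 on all 6 arrays, with differences of -0.08 ± 0.13, 0.00 ± 0.11 and -0.04 ± 0.11. Rdh10, which starts RA synthesis from retinol, overlapped between groups (-0.02 ± 0.098), as did Adh5 (-0.05 ± 0.054), Adh7 (0.12 ± 0.10), Rdh5 (-0.06 ± 0.082) and Lrat (0.04 ± 0.082), while Rbp4 had a difference of -0.30 ± 0.12 without passing (adjusted p = 0.0914). Of the 17 measured genes of RA metabolism, 5 were thus higher and 3 lower, with a median difference of -0.02 against 0.002 over all genes.

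All 3 RA receptors rose. Rarg had 9.83, 9.41 and 9.53 untreated and 11.09, 11.15 and 10.92 at 4 h, and its 2.76-fold rise (1.46 ± 0.10, adjusted p = 2.79e-06) left no overlap. Rara had 8.50, 8.21 and 8.26 untreated and 9.21, 9.48 and 9.38 at 4 h, a 2.04-fold rise (1.03 ± 0.088, adjusted p = 1.28e-05). Rarb, under 6.07 on every untreated array, had 5.10, 4.75 and 5.55 untreated and 7.19, 7.33 and 7.34 at 4 h and rose by 2.16 ± 0.16 (adjusted p = 5.21e-06). Over the 4 h arrays Rara, Rarb and Rarg ranged over 0.27, 0.16 and 0.24, and over the untreated arrays over 0.30, 0.80 and 0.43. Their lowest 4 h value lay above the highest untreated value by 0.71, 1.64 and 1.09, so none of the 3 overlapped. The retinoid X receptors moved little. Rxrb was higher by 0.19 ± 0.052 (adjusted p = 0.0167), a call that ended when only the 6 arrays were fitted or when 4 h array B was left out, and Rxra (-0.09 ± 0.060) and Rxrg (0.14 ± 0.083) did not pass.

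Among the cofactors of nuclear receptors, Nrip1, a corepressor that binds receptors in the presence of their ligand, stood out, with 7.88, 7.85 and 8.43 untreated and 10.53, 10.51 and 10.66 at 4 h. Untreated C was the highest of its group and still 2.07 below the lowest 4 h array, and the rise was 5.7-fold (2.51 ± 0.13, adjusted p = 2.66e-07). With the mean of all its probe sets it was 1.38. The coactivators Ncoa1 and Ncoa2 fell by 0.33 ± 0.062 and 0.53 ± 0.095 (adjusted p = 0.00193 and 0.00143), the latter call ending with the mean of its probe sets, and Ncoa3 (0.22 ± 0.083), Ep300 (-0.12 ± 0.078) and Crebbp (0.33 ± 0.13) did not pass. Ppard, a nuclear receptor for fatty acids, rose by 0.40 ± 0.096 (adjusted p = 0.00847), but not when only the 6 arrays were fitted. In all, 6 of 13 measured receptor and cofactor genes were higher and 2 lower (median 0.22).

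**Figure D2:**
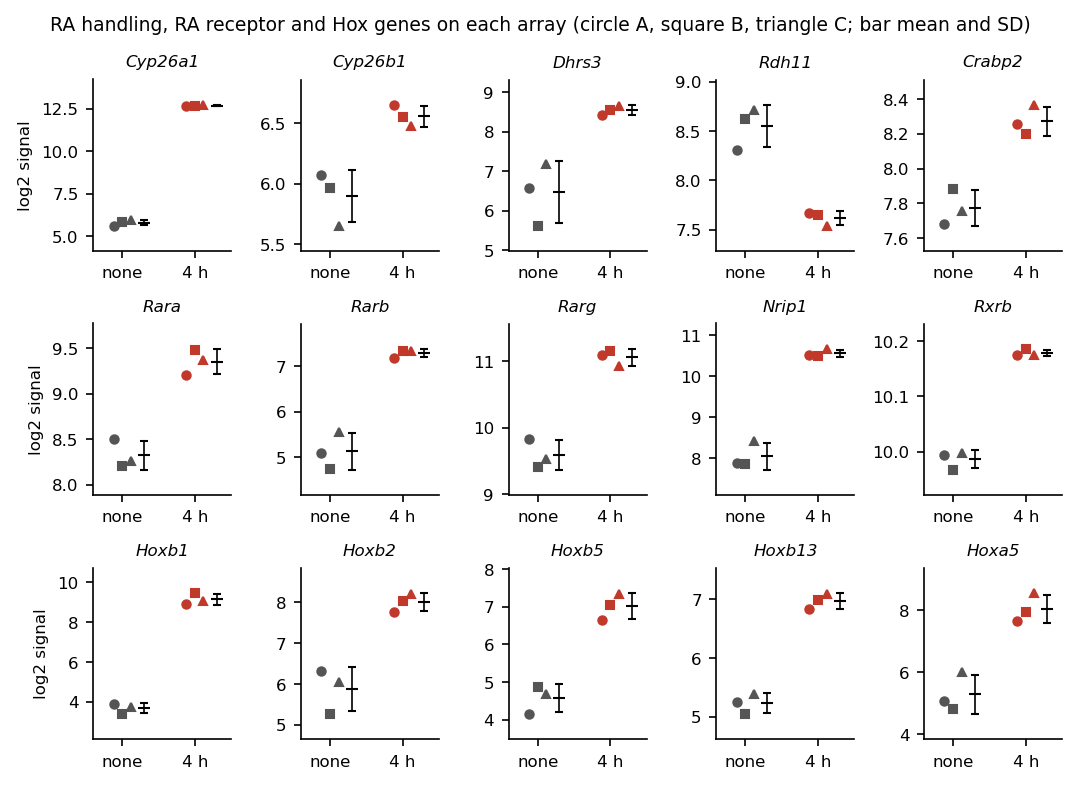
Log2 signal of 15 genes of RA handling, RA receptors and the Hox clusters on the 3 untreated (grey) and 3 4 h (red) arrays, with circles for A, squares for B and triangles for C and the mean and SD beside them; each panel has its own scale. Rdh11 falls, and in the other 14 panels the 4 h arrays lie above all untreated arrays, with the smallest difference, 0.19 ± 0.052, in Rxrb.

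In the Hoxb cluster, which patterns the hindbrain and trunk, 5 of 9 measured genes rose and none was lower, with a median difference of 1.07. Hoxb1, expressed at the position of the future hindbrain, had 3.90, 3.41 and 3.76 untreated and 8.90, 9.45 and 9.08 at 4 h. The groups lay 5.0 log2 units apart at their nearest, and the rise of 5.45 ± 0.17 (adjusted p = 5.04e-09) was the second largest of all genes. Hoxb5 followed, with 4.17, 4.88 and 4.68 untreated and 6.65, 7.05 and 7.34 at 4 h (2.44 ± 0.23, adjusted p = 2.67e-05), and Hoxb2, with 6.33, 5.28 and 6.05 untreated and 7.77, 8.03 and 8.21 at 4 h (2.12 ± 0.25, adjusted p = 9.97e-05). The untreated arrays ranged over 0.71 and 1.05 and lay below every 4 h array. Hoxb4 was the only riser of the cluster with all untreated values above 6.07. It went from 6.46, 6.36 and 6.41 untreated to 7.19, 7.61 and 7.64 at 4 h, a 2.1-fold rise (1.07 ± 0.15, adjusted p = 0.000275). Hoxb13, at the posterior end of the cluster and apart from the others, rose by 1.73 ± 0.11 (adjusted p = 1.54e-06), with 5.25, 5.06 and 5.39 untreated and 6.83, 6.98 and 7.09 at 4 h. Between these lay genes that did not pass: Hoxb3 (0.46 ± 0.18, adjusted p = 0.0764), Hoxb6 (0.33 ± 0.19), Hoxb7 (0.08 ± 0.080) and Hoxb9 (0.05 ± 0.077), the last 3 with overlapping groups. With the mean of probe sets 6 members were called higher.

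The Hoxa cluster also had 5 of 9 measured genes higher and none lower (median 0.30), with 3 higher without untreated B or 4 h C. Its rises were largest for Hoxa5, with 5.06, 4.82 and 6.0 untreated and 7.66, 7.94 and 8.54 at 4 h (2.75 ± 0.33, adjusted p = 0.000109), and Hoxa4, with 3.08, 3.48 and 3.63 untreated and 5.52, 5.72 and 6.48 at 4 h (2.51 ± 0.22, adjusted p = 1.4e-05). In both, array C was the highest of its group at 4 h and also when untreated. With the mean of their probe sets the rises were 1.56 and 1.31. Hoxa2, a gene of the hindbrain and neural crest, rose by 0.64 ± 0.13 (adjusted p = 0.00366), and all its values lay under 6.07. Smaller rises of Hoxa3 (0.30 ± 0.10, adjusted p = 0.0417) and Hoxa7 (0.31 ± 0.095, adjusted p = 0.0314) rested on single arrays. The Hoxa3 call ended without any 1 array other than untreated C, and that of Hoxa7 without untreated B, untreated C or 4 h C. These are values of the brightest probe set. A dimmer Hoxa3 probe set, with a cross-hybridization suffix, rose by 1.42 ± 0.205 (limma adjusted p = 0.00045 over all probe sets), from a mean of 4.725 to 6.15. The other Hoxa3 probe sets had 0.02 and -0.05 and did not pass. Hoxa9, Hoxa10, Hoxa11 and Hoxa13, the posterior genes, did not pass (0.09 ± 0.080, 0.03 ± 0.10, 0.26 ± 0.11 and -0.06 ± 0.069). In the Hoxc and Hoxd clusters 0 of 15 measured genes were called, with differences from -0.19 for Hoxc10 to 0.16 for Hoxd1 (median 0.09), and 11 of the 15 lay under 6.07 on all 6 arrays.

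Partners of Hox proteins changed in both directions, 4 of 10 higher and 2 lower (median -0.02). Meis2, a homeobox gene whose product binds DNA with Hox and Pbx proteins, rose from 5.65, 4.99 and 5.32 untreated to 7.82, 8.11 and 7.80 at 4 h (2.59 ± 0.15, adjusted p = 8.27e-07). Meis1 rose by less (0.85 ± 0.16, adjusted p = 0.00177). Among probe sets without an a, s or x suffix in their name, the brightest of Meis2 rose by 0.75. All 6 of its values lay under 6.07. For Meis1 the brightest such probe set was not called. The Pbx genes went separate ways. Pbx2 rose 1.78-fold, from 9.67, 9.50 and 10.10 untreated to 10.59, 10.56 and 10.62 at 4 h, and Pbx3 fell 1.93-fold, from 8.92, 9.03 and 9.39 untreated to 8.12, 8.17 and 8.21 at 4 h. In both, untreated C had the highest untreated value, which is nearest to the 4 h level in Pbx2 and farthest from it in Pbx3. Tgif2, a homeobox repressor, fell by 0.58 ± 0.057 (adjusted p = 2.86e-05), and Pknox1 rose by 0.27 ± 0.064 (adjusted p = 0.00837), which was no longer called when only the 6 arrays were fitted. Meis3 (0.05 ± 0.097), Pbx4 (-0.19 ± 0.080), Pknox2 (-0.26 ± 0.14) and Tgif1 (-0.10 ± 0.058) did not pass.

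Regulators of the posterior embryo and primitive streak counted 6 higher and 1 lower of 16 measured (median 0.19), and 9 of the 16 lay under 6.07 on all 6 arrays. Cdx1, a caudal-type factor that acts upstream of posterior Hox genes, rose most, with 5.96, 6.31 and 5.77 untreated and 9.40, 9.64 and 9.47 at 4 h (3.49 ± 0.13, adjusted p = 2.4e-08). The 4 h values ranged over 0.23 and lay at least 3.10 above the untreated ones. The Wnt ligands Wnt8a and Wnt3a rose by 1.61 ± 0.19 (adjusted p = 9.97e-05) and 0.89 ± 0.13 (adjusted p = 0.000471), from untreated values under 6.07. Eomes, a T-box factor of early mesoderm and endoderm, rose 1.37-fold (0.45 ± 0.088, adjusted p = 0.00265), and the organizer gene Gsc was higher by 0.81 ± 0.091 with all 6 values under 6.07. Fgf8, a signal of the streak, was the member that fell (-0.77 ± 0.17, adjusted p = 0.00566), to 4 h values under 6.07.

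Neural plate regulators gave 8 higher and 4 lower of 28 measured (median 0.13), and 13 of the 28 lay under 6.07 on all 6 arrays. Nr6a1, an orphan receptor that limits pluripotency genes during differentiation, had 10.08, 10.01 and 10.04 untreated and 11.74, 11.78 and 11.63 at 4 h. Its arrays were tight in both groups, and it rose 3.19-fold (1.68 ± 0.064, adjusted p = 2.4e-08), or by 0.89 with the mean of its probe sets. Gbx2, which sets the border of midbrain and hindbrain, rose 3.33-fold, from 8.99, 8.02 and 7.97 untreated to 9.92, 10.20 and 10.07 at 4 h. Untreated A was well above the other untreated arrays and 0.93 below the lowest 4 h array. Pax6, a neural and eye factor, had 7.27, 6.72 and 6.23 untreated and 8.40, 8.38 and 8.62 at 4 h (1.73 ± 0.21, adjusted p = 0.000109), and the rise was 0.81 with the mean of its probe sets. Irx3 rose by 1.21 ± 0.17 (adjusted p = 0.000333) and Irx5 by 0.68 ± 0.13 (adjusted p = 0.00284). The anterior gene Otx2 fell, with 9.86, 10.14 and 9.52 untreated and 9.10, 8.92 and 8.56 at 4 h (-0.98 ± 0.18, adjusted p = 0.00158), and Otx2 and Gbx2, which mark the opposite sides of the midbrain and hindbrain border, thus moved in opposite directions. Egr2, known both for hindbrain rhombomeres and as an immediate early gene, fell by 1.50 ± 0.17 (adjusted p = 9.51e-05), Olig2 by 1.03 ± 0.12 (adjusted p = 7.79e-05) and Sox11 by 0.79 ± 0.092 (adjusted p = 9.51e-05).

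Neurogenesis genes had 2 higher and 4 lower of 19 (median -0.13), or 0 and 4 without 4 h B. The share called was 31.6%, beside 26.9% of all genes, and 8 of the 19 lay under 6.07 on all 6 arrays. Map2, a microtubule protein of dendrites, fell by 1.02 ± 0.11 (adjusted p = 4.92e-05) to values under 6.07 (-0.34 with the mean of its probe sets), the growth cone protein Gap43 fell by 0.52 ± 0.080 (adjusted p = 0.000537), and the RNA binding protein Elavl4 by 0.48 ± 0.077 (adjusted p = 0.000787). Neurod1 was higher by 0.53 ± 0.15 (adjusted p = 0.0194), but not without untreated A, 4 h A or 4 h B.

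Core pluripotency genes changed in both directions, with 5 of 25 higher and 7 lower (median -0.15), and 2 rose and 1 fell by at least 2-fold. Pou5f1, which encodes Oct4, had 13.22, 13.16 and 13.26 untreated and 13.24, 13.29 and 13.22 at 4 h, and the groups overlapped (0.04 ± 0.053, adjusted p = 0.675). Nanog was 0.21 ± 0.077 and did not pass (adjusted p = 0.0654), although no 4 h array lay below an untreated one. Sox2 fell 1.28-fold, from 13.09, 13.19 and 13.18 untreated to 12.93, 12.78 and 12.70 at 4 h. The largest fall was that of Klf4, a Krüppel-like factor of naive cells, with 12.42, 12.46 and 12.51 untreated and 11.23, 11.25 and 11.41 at 4 h. The 4 h arrays lay at least 1.0 below the untreated ones, a 2.24-fold fall (-1.16 ± 0.079, adjusted p = 2.42e-06). Esrrb fell by 0.43 ± 0.069 (adjusted p = 0.000787), Tfcp2l1 by 0.42 ± 0.061 (adjusted p = 0.000417) and Zfp42 by 0.50 ± 0.11 (adjusted p = 0.00613), which are all genes of the naive state. Klf2 (-0.34 ± 0.089) and Tdgf1 (-0.40 ± 0.091) were also called lower, but not when only the 6 arrays were fitted, nor Klf2 without 4 h C.

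The pluripotency genes that rose were led by Dppa2 and Prdm14. Dppa2, a chromatin factor of early embryos, went from 11.36, 11.15 and 10.84 untreated to 12.94, 12.93 and 12.87 at 4 h, a 3.48-fold rise (1.80 ± 0.11, adjusted p = 9.94e-07), and its partner Dppa4 rose 1.33-fold (0.42 ± 0.066, adjusted p = 0.0007). Prdm14, a regulator of naive cells and germ cells, had 8.32, 8.02 and 9.69 untreated and 10.95, 10.83 and 10.30 at 4 h. Untreated C was far above A and B and below every 4 h array, and the rise was 4.04-fold (2.02 ± 0.34, adjusted p = 0.001). Tbx3 rose by 0.49 ± 0.088 (adjusted p = 0.00158), a call that ended with the mean of its probe sets (0.06). Nr0b1 rose by 0.60 ± 0.18 (adjusted p = 0.0253), and by 0.32, still called, without untreated C, the lowest of its group. The call ended without 4 h A or B and when only the 6 arrays were fitted. The 11 other members that did not pass had differences from -0.50 ± 0.19 for Nr5a2 to 0.11 ± 0.11 for Trim71: Klf5 (-0.24 ± 0.12), Sall4 (-0.15 ± 0.085), Utf1 (0.10 ± 0.061), Dppa3 (-0.23 ± 0.11), Dppa5a (-0.04 ± 0.059), Tcl1 (-0.12 ± 0.064), Fbxo15 (-0.18 ± 0.13), Gdf3 (-0.17 ± 0.087) and Lin28a (-0.03 ± 0.10) lay between. Without untreated C, 6 of the 25 were called higher and 12 lower.

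Of 13 genes of the primed epiblast, 2 were higher and 4 lower (median -0.29), or 3 and 7 without untreated C. Pou3f1, a POU factor of the primed state and of neural fate, rose 1.88-fold, from 9.72, 9.65 and 9.29 untreated to 10.38, 10.56 and 10.45 at 4 h. The de novo DNA methyltransferases parted: Dnmt3a rose 2.66-fold, from 9.98, 9.80 and 9.84 untreated to 11.18, 11.43 and 11.24 at 4 h, while Dnmt3b fell by 0.48 ± 0.091 (adjusted p = 0.00213). The rise of Dnmt3a was 0.63 with the mean of its probe sets. Lef1, a nuclear effector of Wnt, fell by 0.80 ± 0.13 (adjusted p = 0.000692), and the Wnt inhibitor Sfrp2 by 0.63 ± 0.11 (adjusted p = 0.00135). Among 15 DNA methylation genes 3 were higher and 3 lower (median -0.01). The 5-methylcytosine oxidases also moved apart, Tet2 up by 0.77 ± 0.089 (adjusted p = 9.2e-05) and Tet1 down by 0.37 ± 0.081 (adjusted p = 0.00531).

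The receptor chain of LIF, the cytokine that keeps mouse ES cells undifferentiated, fell. Lifr, the LIF receptor, had 10.09, 10.23 and 9.78 untreated and 9.09, 9.05 and 8.94 at 4 h. It fell 2.01-fold (-1.0 ± 0.10, adjusted p = 4.12e-05), or by 0.62 with the mean of its probe sets. Il6st, the signalling subunit gp130, fell 1.6-fold, from 10.19, 10.20 and 9.93 untreated to 9.46, 9.40 and 9.42 at 4 h. Stat3, the transcription factor of the pathway, fell by 0.50 ± 0.084 (adjusted p = 0.000988) in its brightest probe set, but another of its probe sets was called higher by 0.54, and the mean over probe sets gave no call. Of the STAT3 responsive kinases, Pim3 fell by 0.59 ± 0.083 (adjusted p = 0.000336) and Pim1 rose 2-fold (1.0 ± 0.092, adjusted p = 2.09e-05). The list held 2 higher and 6 lower of 18 (median -0.17), with 1 higher without untreated B, 4 h B or 4 h C.

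FGF ligands and receptors had 4 lower and 0 higher of 15 (median -0.11), a share called of 26.7% beside 26.9% of all genes, and 7 lower and 1 higher without untreated C. Fgf4, the FGF that ES cells make and that drives their exit from the naive state through ERK, had 11.86, 11.89 and 11.95 untreated and 10.75, 10.66 and 10.37 at 4 h, a 2.47-fold fall (-1.30 ± 0.10, adjusted p = 6.93e-06). Fgf15 fell 2.5-fold, from 8.60, 8.73 and 8.91 untreated to 7.46, 7.57 and 7.24 at 4 h. Fgf13, which stays inside the cell, fell by 0.92 ± 0.094 (adjusted p = 3.93e-05) (0.43 with the mean of its probe sets). In these 3 genes every 4 h array lay well below every untreated array. Feedback inhibitors and targets of ERK gave 3 higher and 3 lower of 15 (median -0.03), 3 and 7 without untreated C, and 3 and 1 without untreated A, 4 h A or 4 h C. Etv4, an ETS factor usually raised by FGF signalling, rose 2.21-fold, from 9.91, 9.50 and 9.54 untreated to 10.75, 10.90 and 10.73 at 4 h. The inhibitors Spred1 and Spred2 rose by 0.61 ± 0.13 (adjusted p = 0.00395) and 0.46 ± 0.057 (adjusted p = 0.000137).

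Immediate early genes, which answer growth factors within minutes, fell widely: 9 of 21 were lower and 1 was higher (median -0.34). Jun, a subunit of AP-1, had 9.65, 10.12 and 10.24 untreated and 8.68, 8.55 and 8.36 at 4 h, and Egr1 had 13.35, 13.56 and 13.33 untreated and 12.43, 12.29 and 12.12 at 4 h. They fell 2.77-fold and 2.19-fold (differences -1.47 ± 0.14 and -1.13 ± 0.10, adjusted p = 2.53e-05 and 1.97e-05), and untreated A was the lowest untreated array for Jun. Arc, Klf6 and Fosb fell by 1.28 ± 0.28, 1.28 ± 0.23 and 1.14 ± 0.21 (adjusted p = 0.00545, 0.00168 and 0.00192), with untreated arrays that ranged over 1.50, 1.24 and 1.0. Atf3 was the member that rose (0.58 ± 0.12, adjusted p = 0.0032), and 2 were higher without untreated B. The change of medium that came with RA cannot be told apart from RA for these genes.

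Ligands and targets of BMP gave 4 higher and 4 lower of 21 (median -0.01). Bmp4, the ligand, rose 2.63-fold, from 9.45, 9.0 and 8.90 untreated to 10.56, 10.60 and 10.38 at 4 h. Id2, a BMP-responsive inhibitor of differentiation factors, fell 3.29-fold, from 9.86, 10.03 and 8.97 untreated to 7.96, 7.77 and 7.99 at 4 h, with untreated C lowest of its group. Its fall was 1.08 in the brightest probe set without an a, s or x suffix. Id4 fell by 0.90 ± 0.13 (adjusted p = 0.000389), while the homeobox gene Msx2 rose by 0.76 ± 0.070 (adjusted p = 2.09e-05) from untreated values under 6.07. Of 16 Nodal and activin genes, 3 were higher and 3 lower (median 0.09), or 6 and 3 without untreated C, 2 and 1 without 4 h A or B and 3 and 1 without 4 h C. The activin subunit Inhbb rose 1.93-fold, from 10.63, 9.90 and 10.57 untreated to 11.27, 11.26 and 11.41 at 4 h. Its partner Inhba rose by 1.12 ± 0.25 (adjusted p = 0.00587), or 0.55 with the mean of its probe sets.

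Wnt pathway genes had 3 higher and 6 lower of 23 (median -0.04). The receptor Fzd5 fell 2.2-fold, from 11.35, 11.23 and 10.88 untreated to 10.04, 10.08 and 9.93 at 4 h, the receptor Fzd2 by 0.59 ± 0.096 (adjusted p = 0.000815) and the secreted inhibitor Sfrp1 by 0.79 ± 0.085 (adjusted p = 5.31e-05). The TCF factors rose: Tcf7l1, the repressor form abundant in ES cells, by 0.78 ± 0.10 (adjusted p = 0.000222) and Tcf7l2 by 0.52 ± 0.074 (adjusted p = 0.000329). With Lef1 lower, members of this one factor family moved in opposite directions. Notch genes leaned to the lower side, with 10 of 21 lower and 2 higher (median -0.28). The ligand Dll1 had 7.37, 7.52 and 7.91 untreated and 6.26, 6.43 and 6.56 at 4 h, a 2.27-fold fall (-1.18 ± 0.13, adjusted p = 7.01e-05). Notch1 fell 1.71-fold, from 9.85, 9.89 and 9.58 untreated to 9.04, 9.02 and 8.93 at 4 h, and the target gene Hes1 by 0.75 ± 0.11 (adjusted p = 0.000366). Notch4 went the other way, from 7.48, 7.45 and 8.12 untreated to 9.01, 8.96 and 8.74 at 4 h (1.22 ± 0.18, adjusted p = 0.000444), with untreated C the highest of its group. Its rise was 0.57 with the mean of its probe sets.

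Genes of other early lineages were called in both directions. Primitive endoderm had 2 higher and 2 lower of 19 (median 0.05), a share called of 21.1% beside 26.9% of all genes. Foxa1, a pioneer factor of endoderm, was among the 20 largest rises, with 4.40, 4.78 and 5.05 untreated and 7.0, 6.90 and 7.16 at 4 h (2.28 ± 0.13, adjusted p = 8.27e-07), and Gata6 rose 1.73-fold (0.79 ± 0.10, adjusted p = 0.000221). The laminin chain Lamc1 and the adaptor Dab2, both abundant in differentiated endoderm, fell by 0.35 ± 0.057 and 0.42 ± 0.085 (adjusted p = 0.000918 and 0.00318). Trophoblast markers gave 1 higher, Tfap2c (0.39 ± 0.084, adjusted p = 0.00465), and 1 lower, the keratin Krt19 (-0.54 ± 0.11, adjusted p = 0.00365), of 13. Their share called, 15.4%, was also under that of all genes. Germ line and meiosis genes gave 3 higher and 5 lower of 18 (median 0.03), or 3 and 3 without untreated B. Stra8, named for its stimulation by RA and needed to enter meiosis, rose 5.2-fold, from 9.72, 8.82 and 10.04 untreated to 11.57, 11.62 and 12.52 at 4 h. The untreated arrays ranged over 1.22 and 4 h C was 0.90 above the next array, with no overlap (2.38 ± 0.33, adjusted p = 0.000285). Among the members that fell, Rec8, a meiotic cohesin, fell by 0.79 ± 0.11 (adjusted p = 0.000356) and Tex14, of germ cell bridges, by 0.66 ± 0.080 (adjusted p = 0.000124). The stem cell factor receptor Kit rose by 0.70 ± 0.096 (adjusted p = 0.000281). Dazl rose by 0.51 ± 0.14 (adjusted p = 0.0148), a call that ended when only the 6 arrays were fitted or without 4 h A.

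Among 18 genes of transcription elongation complexes, which release paused RNA polymerase II, 6 were lower and 1 higher (median -0.07), the latter lost without untreated C or 4 h B. Mllt3 and Aff3, members of such complexes, fell most. Mllt3 had 6.24, 6.48 and 6.49 untreated and 4.73, 4.60 and 4.81 at 4 h (-1.69 ± 0.080, adjusted p = 1.66e-07). Its fall was 0.66 in the brightest probe set without an a, s or x suffix. Aff3 had 8.80, 8.81 and 8.77 untreated and 7.48, 7.75 and 7.85 at 4 h (-1.10 ± 0.096, adjusted p = 1.44e-05). With the mean of its probe sets the fall of Aff3 was 0.60. Ell2, an elongation factor, fell 1.54-fold (-0.62 ± 0.096, adjusted p = 0.000589). Polycomb genes split as 6 higher and 5 lower of 25 (median 0.09). Ezh2, the main histone methyltransferase of the complex in ES cells, fell by 0.34 ± 0.062 (adjusted p = 0.00174), and the ring finger partner Pcgf5 by 0.65 ± 0.086 (adjusted p = 0.000219). The accessory subunits Aebp2 and Jarid2 rose by 0.69 ± 0.10 (adjusted p = 0.000437) and 0.39 ± 0.088 (adjusted p = 0.00639). Of 29 other histone methylation enzymes 5 were higher and 8 lower (median -0.07). Kdm6b, a demethylase that removes the Polycomb mark, rose 1.58-fold, from 9.74, 9.66 and 9.65 untreated to 10.26, 10.38 and 10.40 at 4 h, and Kdm3a by 0.52 ± 0.080 (adjusted p = 0.000589). Kdm4c and Ehmt2 fell by 0.64 ± 0.10 and 0.43 ± 0.071 (adjusted p = 0.000659 and 0.000851).

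**Figure D3:**
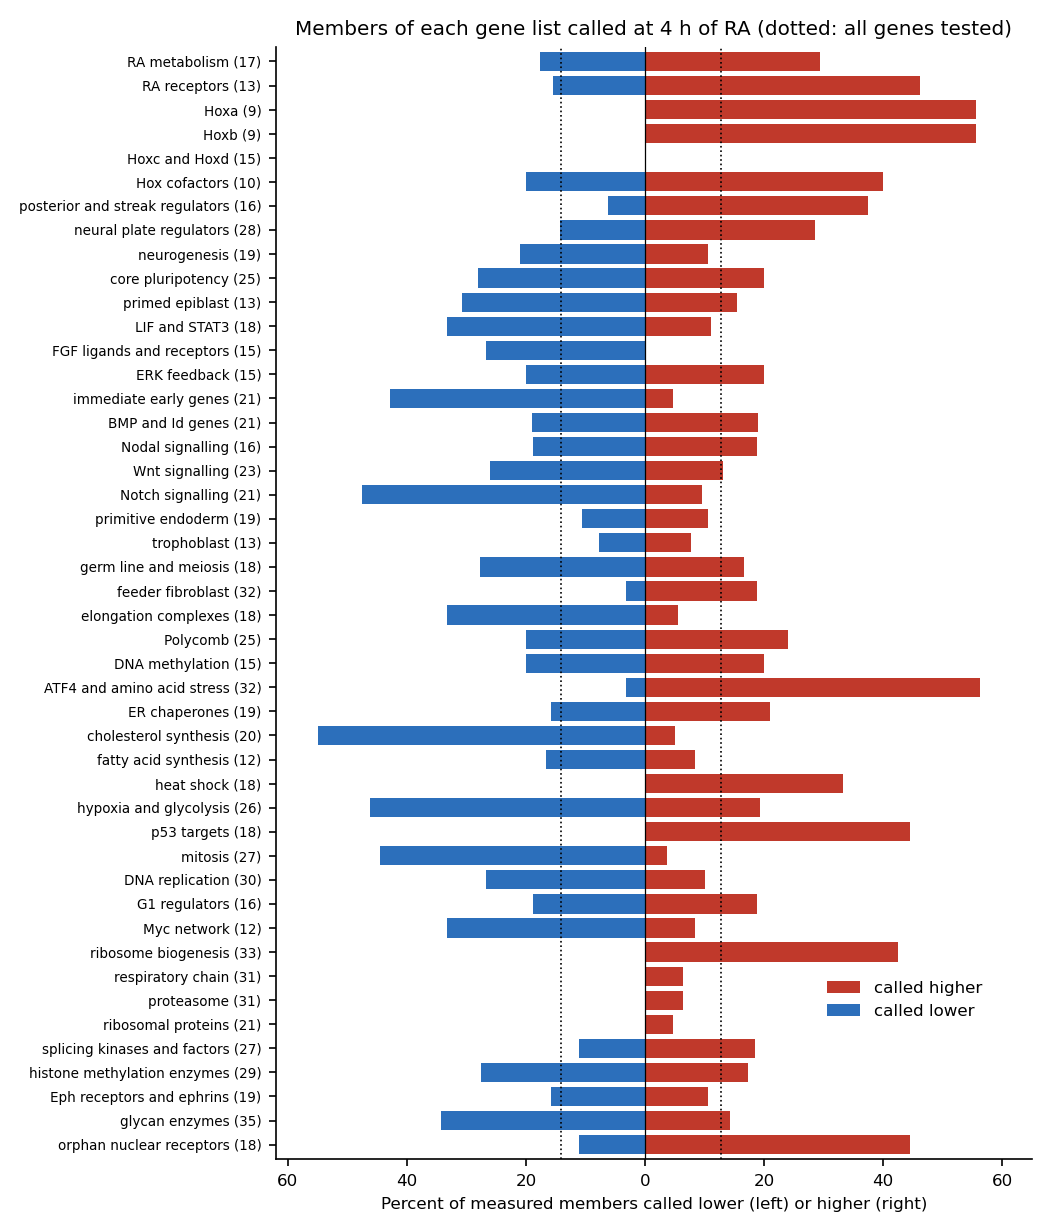
Percent of the measured members of 46 gene lists called lower (blue, left) or higher (red, right) at 4 h against no RA by limma, with the number of measured members in parentheses and dotted lines at the shares over all genes tested, 14.1% and 12.8%. The ATF4, Hoxa and Hoxb lists reach furthest to the right and cholesterol synthesis, Notch signalling and hypoxia are among those reaching furthest to the left.

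Genes of the ATF4 programme, which amino acid shortage and other stresses switch on, rose in number: 18 of 32 were higher and 1 lower (median 0.28). Chac1, a glutathione-degrading enzyme of this programme, had 8.11, 8.50 and 8.95 untreated and 11.63, 11.67 and 11.63 at 4 h. Its untreated arrays ranged over 0.84 and the 4 h arrays over 0.04, for an 8.72-fold rise (3.12 ± 0.17, adjusted p = 4.76e-07). The pseudokinase Trib3 rose 2.25-fold, from 8.78, 8.89 and 8.87 untreated to 10.10, 10.0 and 9.94 at 4 h. The factor Atf5 rose by 0.92 ± 0.18 (adjusted p = 0.00241) and the arginine transporter Slc7a1 by 0.77 ± 0.11 (adjusted p = 0.000273). Ddit4, an inhibitor of mTORC1, rose by 1.11 ± 0.27 (adjusted p = 0.00956). Its untreated C lay at 11.90, next to the 4 h values, and the call ended when only the 6 arrays were fitted. Cbs, of cysteine synthesis, fell by 0.34 ± 0.060 (adjusted p = 0.00136). The list gave 12 higher and 1 lower in the fit of only 6 arrays.

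Endoplasmic reticulum chaperones and quality control genes had 4 higher and 3 lower of 19 (median 0.06), or 4 and 1 without untreated C or 4 h B. Herpud1, of the degradation machinery, rose 2.7-fold, from 8.97, 9.44 and 9.31 untreated to 10.64, 10.74 and 10.62 at 4 h. Xbp1, a transcription factor of the unfolded protein response, rose 2-fold (1.0 ± 0.13, adjusted p = 0.000188), or by 0.60 in its brightest probe set without a suffix. The chaperone cofactor Sdf2l1 fell by 0.76 ± 0.11 (adjusted p = 0.000417). Heat shock genes gave 6 higher and 0 lower of 18 (median 0.12), or 7 and 1 without untreated A. The inducible chaperones Hspa1b and Hspa1a rose, with 8.80, 8.74 and 8.51 untreated and 9.68, 9.46 and 9.46 at 4 h for Hspa1b (1.81-fold) and 6.58, 6.73 and 6.72 untreated and 7.76, 7.59 and 7.28 at 4 h for Hspa1a (1.83-fold). These near-identical genes may share probes. Hsph1 rose by 0.63 ± 0.12 (adjusted p = 0.00179). Of 18 p53 target genes 8 were higher and 0 lower (median 0.31). They included Gtse1 (0.60 ± 0.10), Perp (0.57 ± 0.13) and Aen (0.57 ± 0.091), with adjusted p = 0.00133, 0.00586 and 0.000754.

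Cholesterol synthesis enzymes fell, 11 of 20 lower and 1 higher (median -0.27), or 10 and 2 without untreated A. Cyp51, the sterol demethylase, had 10.13, 10.08 and 9.23 untreated and 8.86, 8.79 and 8.79 at 4 h. Untreated C was 0.84 below untreated B and above every 4 h array, and the fall was 2-fold (-1.0 ± 0.18, adjusted p = 0.00156). Insig1, the sterol sensor that restrains the pathway and is itself one of its targets, fell 1.88-fold, from 10.55, 10.50 and 10.29 untreated to 9.57, 9.55 and 9.50 at 4 h. Sqle and Dhcr7, of the same pathway, fell by 0.61 ± 0.086 and 0.63 ± 0.086 (adjusted p = 0.000348 and 0.000268), and the isomerase Ebp rose by 0.46 ± 0.067 (adjusted p = 0.000416). Fatty acid synthesis had 1 higher, the elongase Elovl6 (0.56 ± 0.079, adjusted p = 0.000361), and 2 lower of 12, a share called of 25% beside 26.9% of all genes. These counts were 4 and 2 without untreated C, 2 and 2 without untreated A, 1 and 1 without untreated B and 1 and 0 without 4 h B.

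Hypoxia and glycolysis genes had 12 lower and 5 higher of 26 (median -0.17), and in 23 of the 26 the groups did not overlap, beside 37.0% of all genes. The falls were led by Ndrg1, with 8.68, 9.11 and 8.76 untreated and 7.25, 7.22 and 7.02 at 4 h (3.21-fold, -1.68 ± 0.11, adjusted p = 1.54e-06). Egln3, an oxygen-sensing hydroxylase, fell 2.08-fold and the mitophagy receptor Bnip3 2-fold (differences -1.06 ± 0.16 and -1.0 ± 0.090, adjusted p = 0.000485 and 1.83e-05). The glycolytic enzymes Pfkp and Hk2 fell by 0.73 ± 0.10 and 0.54 ± 0.086. Vegfa, the angiogenic factor and a standard hypoxia target, rose instead, from 7.29, 7.50 and 8.22 untreated to 9.09, 8.99 and 9.12 at 4 h. Untreated C was 0.72 above untreated B, and the rise was 2.63-fold (1.40 ± 0.18, adjusted p = 0.000178), or 0.91 with the mean of its probe sets.

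Cell cycle genes changed by small amounts. Mitosis genes had 12 lower and 1 higher of 27 (median -0.16), or 7 lower and 0 higher without 4 h A or without 4 h B, 0 higher also without untreated A, untreated B or 4 h C, and 5 lower in the fit of only 6 arrays. Cdc25b, a phosphatase that starts mitosis, had 8.61, 8.60 and 8.94 untreated and 7.79, 7.84 and 7.79 at 4 h (1.87-fold, -0.90 ± 0.091, adjusted p = 3.34e-05), and Bub1b and Nusap1 fell by 0.46 ± 0.076 and 0.43 ± 0.072. DNA replication genes gave 8 lower and 3 higher of 30 (median -0.06), led by the kinase Tk1 (-0.52 ± 0.13) and the regulator E2f1 (-0.44 ± 0.070). Without 4 h A or B no member of this list was called higher, and without untreated A 1 was. G1 regulators were 3 higher and 3 lower of 16, with 1 lower without any 1 of untreated A, untreated B, 4 h A and 4 h B. In the Myc network 4 of 12 were lower and 1 higher (median -0.20). Mycn, the main Myc gene of ES cells beside Myc itself, fell 2.23-fold, from 12.54, 12.72 and 12.11 untreated to 11.46, 11.44 and 11.01 at 4 h. Mnt, a repressor of the network, had 10.93, 11.01 and 9.87 untreated and 9.29, 9.34 and 9.37 at 4 h (-1.27 ± 0.22, adjusted p = 0.00134), with untreated C 1.06 below untreated A. With the mean of their probe sets the falls of Mycn and Mnt were 0.72 and 0.68.

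Ribosome biogenesis genes had 14 higher and 0 lower of 33 (median 0.14), with 1 lower without untreated C, and the rises were 0.57 or less. The processing factors Bysl, Utp20 and Rrp12 led, with rises of 0.57 ± 0.083, 0.54 ± 0.089 and 0.52 ± 0.076 (adjusted p = 0.000404, 0.000838 and 0.000435). Bysl had 10.64, 10.46 and 10.25 untreated and 10.97, 11.04 and 11.04 at 4 h, with untreated C lowest. Large housekeeping sets held few calls. Respiratory chain genes had 2 higher of 31 (median 0.007), proteasome genes 2 of 31 (median 0.04) and ribosomal proteins 1 of 21 (median 0.009), all shares under the 12.8% of all genes, and none was lower. The ribosomal member was Rps6 (0.42 ± 0.076, adjusted p = 0.00153). The respiratory members were Cycs (0.19 ± 0.058) and Atp5g1 (0.20 ± 0.057), and both calls ended without 4 h C. Otherwise 1 respiratory gene was higher without untreated A, untreated B, 4 h A or 4 h B (and 1 lower without untreated A), and 1 proteasome gene was higher without 4 h C.

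Splicing kinases and factors had 5 higher and 3 lower of 27 (median 0.14), a share called of 29.6% beside 26.9% of all genes. The counts were 8 and 2 without untreated A or B and 3 and 2 without 4 h B. Clk2, a kinase of splicing factors, rose 2.39-fold, from 8.73, 8.63 and 9.95 untreated to 10.36, 10.35 and 10.38 at 4 h, with untreated C 1.22 above untreated A. Srpk2, a kinase of the same substrates, fell 2.68-fold, from 10.08, 10.57 and 10.17 untreated to 8.64, 9.02 and 8.88 at 4 h. Of 18 orphan nuclear receptors 8 were higher and 2 lower (median 0.10), or 8 and 4 without untreated C and 5 and 2 without 4 h B. Nr2c2 rose 1.54-fold, from 10.18, 10.11 and 9.94 untreated to 10.72, 10.70 and 10.68 at 4 h, Esrra by 0.50 ± 0.082 (adjusted p = 0.000858), and the clock component Nr1d2 fell by 0.56 ± 0.092 (adjusted p = 0.000821). Eph receptors and ephrins had 2 higher and 3 lower of 19 (median 0.04), a share called of 26.3% beside 26.9% of all genes. These counts were 5 and 3 without untreated C and 1 and 3 without untreated B or 4 h A. The members called included Epha4, lower by 0.76 ± 0.13 (adjusted p = 0.00119), and Epha7, higher by 0.98 ± 0.16 (adjusted p = 0.000925).

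Enzymes that build cell surface glycans had 12 lower and 5 higher of 35 (median -0.18), or 13 and 3 without untreated C and 11 and 2 without 4 h A, and they hold the largest fall of all genes. Fut9, the fucosyltransferase that makes the SSEA-1 antigen of mouse ES cells, had 9.05, 9.21 and 9.28 untreated and 7.16, 6.98 and 6.77 at 4 h. The 4 h arrays lay at least 1.89 below the untreated ones, a 4.62-fold fall (-2.21 ± 0.10, adjusted p = 1.66e-07). Gcnt2, which branches the same kind of glycan chain, fell 2.91-fold, from 10.24, 10.43 and 10.13 untreated to 8.97, 8.66 and 8.55 at 4 h, or by 0.62 with the mean of its probe sets. The ganglioside sialyltransferase St8sia1 fell by 1.10 ± 0.15 (adjusted p = 0.000238) to values under 6.07 (0.58 with the mean of its probe sets). Hs6st1 and Chst1, sulfotransferases of heparan and keratan sulfate, fell by 0.97 ± 0.20 and 0.89 ± 0.17 (adjusted p = 0.00322 and 0.00215). St6galnac2 and Hs3st3b1 rose by 0.61 ± 0.15 (adjusted p = 0.00928) and 0.54 ± 0.11 (adjusted p = 0.00318).

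Some of the largest changes fell outside every list. Csn3, a milk casein, had the third largest rise, with 6.75, 6.23 and 6.04 untreated and 9.96, 9.95 and 10.0 at 4 h (3.63 ± 0.14, adjusted p = 2.89e-08), or by 2.10 with the mean of its probe sets. The water channel Aqp3 had 8.03, 7.97 and 7.86 untreated and 10.89, 10.78 and 10.76 at 4 h, tight in both groups, and rose 7.25-fold (2.86 ± 0.087, adjusted p = 5.04e-09). Camk2n1, an inhibitor of CaM kinase II, rose 4.49-fold, from 7.46, 7.63 and 8.94 untreated to 10.08, 10.14 and 10.32 at 4 h, with untreated C well above A and B. Thbd, the thrombin receptor thrombomodulin, had 7.16, 7.41 and 6.26 untreated and 9.36, 8.95 and 9.02 at 4 h (4.5-fold, 2.17 ± 0.24, adjusted p = 7.83e-05), with untreated C lowest. Dleu7 rose by 2.26 ± 0.36 (adjusted p = 0.000783), with untreated values from 5.18 to 6.96, and the basic helix-loop-helix gene Tal2 by 2.08 ± 0.20 (adjusted p = 2.94e-05).

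Beside Fut9, the largest falls were those of Mipol1 (-1.90 ± 0.12), Lrrc31 (-1.87 ± 0.24), Pdgfc (-1.84 ± 0.19) and Osbpl10 (-1.76 ± 0.13), with adjusted p = 1.92e-06, 0.00018, 3.52e-05 and 4.81e-06. Pdgfc, a platelet-derived growth factor, had 10.02, 10.11 and 9.25 untreated and 8.12, 7.84 and 7.90 at 4 h, a 3.59-fold fall. Frmd4b, a scaffold protein, had 8.67, 8.58 and 8.63 untreated and 7.11, 7.10 and 7.02 at 4 h, with ranges of 0.09 and 0.10 (2.93-fold), though the fall was 0.74 with the mean of its probe sets. Zc3h6 fell by 1.71 ± 0.39 (adjusted p = 0.00622), with untreated values from 5.24 to 7.22 and untreated C highest. Falls with the smallest adjusted p were led by Mcf2, with 7.59, 7.55 and 7.45 untreated and 5.90, 5.91 and 5.82 at 4 h (-1.65 ± 0.060, adjusted p = 2.26e-08). Dip2c (-1.09 ± 0.056, adjusted p = 3.16e-07) and Asap2 (-1.38 ± 0.080, adjusted p = 8.27e-07) were in the same group. Cyp2s1, a cytochrome P450 that is known to metabolise RA, fell 2.82-fold, from 8.04, 8.41 and 8.38 untreated to 6.81, 6.71 and 6.82 at 4 h. Also among the 20 largest falls were Zmat4 (-1.70 ± 0.28), Fgd5 (-1.66 ± 0.12), Lcorl (-1.59 ± 0.19), Gprc5b (-1.58 ± 0.15) and Cdc42ep5 (-1.48 ± 0.10).

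Where the 4 h level stood in time was read from the same fit, with the 2 h and 6 h arrays. These comparisons share the 4 h arrays with the comparison above. Against 2 h, 2315 genes were higher at 4 h (12.7%) and 2160 lower (11.9%). Against 6 h only 50 were higher (0.275%) and 57 lower (0.313%). Among the leading genes, Cyp26a1 was 0.74 ± 0.084 above its 2 h level (adjusted p = 0.000133), and the difference from 6 h, 0.39 ± 0.084, did not pass (adjusted p = 0.0651). Hoxb1 was 2.52 ± 0.17 above 2 h (adjusted p = 5.93e-06) and -0.24 ± 0.17 against 6 h (adjusted p = 0.597). Hoxa5 and Hoxb2 likewise rose between 2 h and 4 h, by 1.57 ± 0.33 and 1.51 ± 0.25. Rarb (0.28 ± 0.16), Dhrs3 (0.17 ± 0.28) and Chac1 (0.27 ± 0.17) did not pass against 2 h. Fgf4 stood at its untreated level on the 2 h arrays (mean 11.87) and was -1.28 ± 0.10 at 4 h against 2 h (adjusted p = 2.13e-05), while Klf4 was -0.52 ± 0.079 (adjusted p = 0.000771). Tal2 had passed its height by 4 h, at -0.98 ± 0.20 against 2 h (adjusted p = 0.00468).

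A few genes had their extreme at 4 h. Called at 4 h against no RA, against 2 h and against 6 h, 5 genes were higher than at both other RA times and 20 were lower. The gene 9230114K14Rik led, with 6.91, 7.16 and 6.92 untreated and 8.17, 7.91 and 7.75 at 4 h, 0.90 ± 0.11 above 2 h and 0.63 ± 0.11 above 6 h. Polk, a translesion DNA polymerase, exceeded them by 0.40 ± 0.10 and 0.60 ± 0.10, Rap2b, a Ras-like GTPase, by 0.45 ± 0.078 and 0.48 ± 0.078, the decapping enzyme Dcp2 by 0.32 ± 0.058 and 0.31 ± 0.058, and Tgds by 0.21 ± 0.053 and 0.27 ± 0.053. The call of Rap2b against no RA ended with the mean of its probe sets. Of the 20 low genes 19 were also lower than without RA. Plekha2, which binds membrane phosphoinositides, had 9.63, 9.83 and 10.16 untreated and 8.68, 8.56 and 8.71 at 4 h, and was -1.13 ± 0.12 against 2 h and -0.74 ± 0.12 against 6 h. Zfp367 was -0.93 ± 0.11 and -0.62 ± 0.11, the chromatin reader Phf21a -0.62 ± 0.072 and -0.72 ± 0.072, Lef1 -0.56 ± 0.13 and -0.67 ± 0.13 and Ehbp1 -0.57 ± 0.063 and -0.48 ± 0.063. Tmtc1 was the exception, with 7.45, 7.28 and 7.21 untreated and 8.64, 8.71 and 8.68 at 4 h: it was 2.57-fold above untreated and yet -0.58 ± 0.070 against 2 h and -0.55 ± 0.070 against 6 h.

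**Figure D4:**
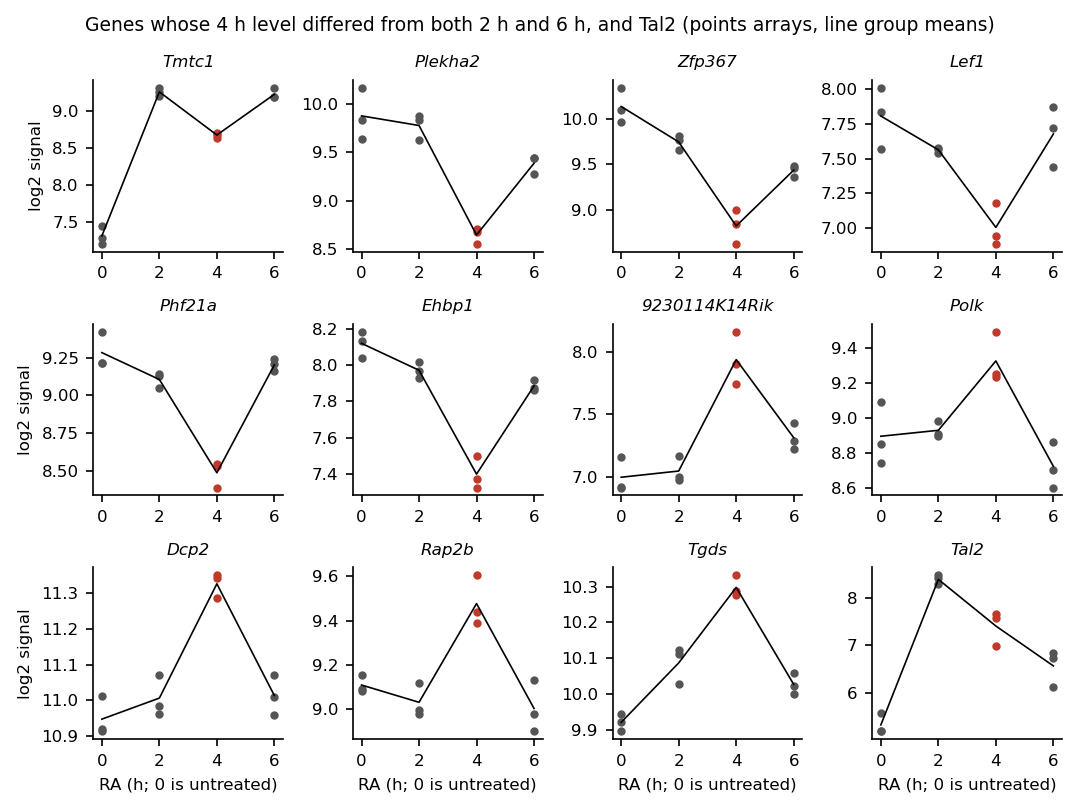
Log2 signal of 11 genes whose 4 h level differed from both the 2 h and the 6 h level, and of Tal2, on 3 arrays per time (points, 4 h in red) with lines through the group means; time 0 is untreated and each panel has its own scale. Plekha2, Zfp367, Lef1, Phf21a and Ehbp1 dip at 4 h and 9230114K14Rik, Polk, Dcp2, Rap2b and Tgds peak there, while Tmtc1 dips between higher 2 h and 6 h levels and Tal2 descends from 2 h.

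Probe sets of the same gene did not always move together. Of 9012 genes with more than 1 probe set, 126 had probe sets called in both directions. Without counting probe sets with an a, s or x suffix, 92 of these still did so. Zmynd8, a chromatin reader, was the clearest. Its brightest probe set had 11.31, 11.54 and 11.42 untreated and 10.42, 10.64 and 10.47 at 4 h (-0.91 ± 0.090), and another rose by 0.75 ± 0.13 from a mean of 6.73 to 7.48. Kif1b, a kinesin motor, had -0.72 ± 0.11 for the brightest and 0.81 ± 0.11 for another, whose untreated and 4 h arrays also did not overlap. Wdr4, part of a tRNA methyltransferase, rose by 0.62 ± 0.098 in its brightest probe set and fell by 0.74 ± 0.13 in another. Rnf213 had -0.70 ± 0.13 in the brightest and 0.87 ± 0.15 in the other, and Ggnbp2 -0.72 ± 0.062 in the brightest and 0.80 ± 0.20 in another, the latter with values under 6.07. For these 5 genes the mean over probe sets gave no call, and which transcripts the probe sets read was not analysed here. The mean over probe sets moved the differences of 80 of the 307 named genes that were called by over 1.5 times. Beside the values given above, it gave -0.77 for Asap2, -0.74 for Cdc42ep5, -0.24 for Dab2, -0.27 for Ell2, 0.38 for Epha7, 0.36 for Gata6, 0.23 for Hs3st3b1, -0.43 for Il6st, -0.44 for Lcorl and 1.59 for Meis2. It gave -0.74 for Mipol1, 0.38 for Msx2, 0.25 for Nr2c2, 0.53 for Pbx2, -0.36 for Pcgf5, -0.33 for Phf21a (no longer called), 0.21 for Ppard, 0.46 for Slc7a1 and 0.36 for St6galnac2. Tcf7l2 had 0.35, Tet1 -0.60, Tfcp2l1 -0.18, Zc3h6 -0.89, Zfp367 -0.77 and Zmat4 -0.80. Without suffixed probe sets Jarid2 had 0.66, Tfap2c 0.60, Cycs 0.32 and Frmd4b -0.54.

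**Figure D5:**
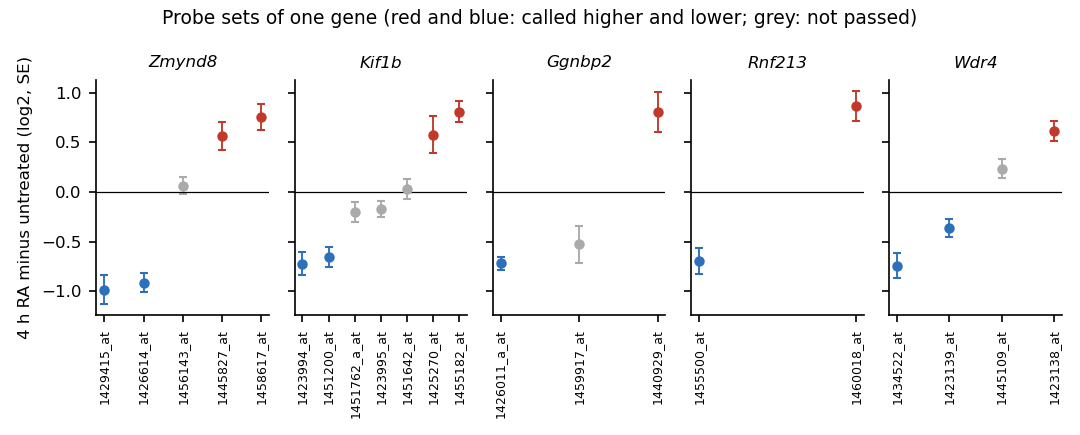
Difference at 4 h of RA against no RA (log2, with SE) for every probe set of Zmynd8, Kif1b, Ggnbp2, Rnf213 and Wdr4, ordered from lowest to highest within each gene; red and blue are called higher and lower over all probe sets, grey did not pass. Each gene has at least 1 blue and 1 red probe set.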

How the data were processed

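KH2 ES cell RNA (200 ng per sample, per the labels' protocols) was measured on Affymetrix mouse arrays. The authors deposited log2 signal values for 45101 probe sets on 12 arrays, and these were used as deposited. The submitters' processing notes list limma 3.4.3. The method of normalization is not given in the sources used here.

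The platform annotation names 1 gene for 34958 probe sets, several for 932 and no gene for 9211. The first kind was used, 34754 of them matched to RefSeq gene identifiers with 0 symbols changed, and the brightest probe set over all arrays stands for each of 18194 genes. The names are those of the annotation. Genes of the lists without such a probe set were not analysed here (911 of 980 listed genes were measured).

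Group means of all 12 arrays were fitted in limma 3.58.1 under R 4.3.3 with lmFit and eBayes. The fit had 8 residual degrees of freedom and a prior worth 3.78, and 4 h was compared with no RA, 2 h and 6 h. Calls took a Benjamini-Hochberg adjusted p under 0.05 over all genes. Arrays have no read depth, and 3 per group limit the precision.

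Named genes, 351 in all, are the 20 largest rises and falls without overlap, up to 5 called members each way of 46 lists (the 3 largest differences where fewer than 2 were called), all RA, RA receptor, Hoxa, Hoxb, Hox cofactor and core pluripotency genes, up to 6 genes highest and lowest at 4 h, 5 genes with probe sets called both ways, and the 5 smallest adjusted p each way. Ppbp and Tinagl1, named for their promoters, were chosen after their values were seen. The members and lists were chosen with earlier results of these data known.

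On simulated data for 18194 genes with 100 changed per size, the 4 h comparison recovered 59% at a log2 change of 0.5 and 95% at 1, with 16 false calls. The simulation gave each gene the same normal noise in every group and changed far fewer genes than the 4893 called here. Its recovery and false calls therefore do not carry over to these data. As alternatives the values were centred on array medians or quantile normalized, and further fits took the mean of probe sets, no suffixed probe sets, a filter on dim genes, a trended robust variance, array weights, a fit of only 6 arrays, the replicate letter as a block, limma's treat test at 0.5, and each array left out. Python 3.11.15, pandas 2.3.3, numpy 2.4.6 and matplotlib 3.10.9 were used.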

Additional observations from a re-analysis of the deposited data

Results flagged for a closer look

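At 4 h, 11 genes were named for standing furthest above or below both the 2 h and the 6 h level. They were picked for passing the tests of both differences (limma, adjusted p under 0.05 in each). Other named genes also passed both tests and are not listed here. Among them Jun was lower at 4 h than at both times, while Mcf2 and Aebp2 lay between their 2 h and 6 h levels. Values are log2 differences, the smaller of the 2 in size for each gene. Higher at 4 h were 9230114K14Rik by 0.63, Rap2b by 0.45, Polk by 0.40, Dcp2 by 0.31 and Tgds by 0.21. Lower at 4 h were Plekha2 (-0.74), Zfp367 (-0.62), Phf21a (-0.62), Lef1 (-0.56), Tmtc1 (-0.55) and Ehbp1 (-0.48). Each group had 3 arrays, so no search gene by gene for a single outlying array within a group was made. Over all genes, untreated C had the lowest fitted array weight, 0.177, beside 0.765 to 1.88 for the other arrays.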

How the results depend on the processing

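Of the 307 named genes called at 4 h, 220 kept direction and call under the alternatives run for them other than limma's treat test at a minimum log2 difference of 0.5 (189 of these had a value under every alternative and 31 did not), and 22 lost the call without untreated C. The counts of genes higher and lower were 1423 and 1658 when only the 6 arrays were fitted and 135 and 133 by the treat test, which asks for a larger difference. With a mean over each gene's probe sets 71 genes fell by at least 2-fold, against 127; the cause was not tested. Called genes went from 3789 without 4 h B to 5299 without untreated C, 3703 and 4252 of them shared with the 4893 in the same direction. The split was 2190 higher and 2737 lower after median centring, against 2332 and 2561. Whether the replicate letters pair the samples is not known. Correlations of same-letter deviations were -0.075, 0.007 and 0.153, beside -0.224 to 0.232 for different letters, and values of this size cannot decide it. With the letter as a replicate block 2341 genes were higher and 2568 lower, 4657 of them shared. Values reversed for Atp5g1 (-0.145) and Hmmr (0.112) without suffixed probe sets, and for Rnf213 (0.086) and Wdr4 (-0.064) with the mean of probe sets. Signals under the median of all values were not tested against background.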

Other observations

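Probe sets without a gene name also changed at 4 h. Of 9160 such probe sets, control probe sets left out, 501 were higher and 378 lower by limma (9.60% called), and 27 and 17 of them changed by at least 2-fold. These calls were adjusted over every probe set on the arrays. The 26.9% of tested genes called is not a like measure, as it takes the brightest probe set of each gene and was adjusted over genes. They were counted only, and what they read was not analysed here.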
